A study of Bos taurus with 16 samples.

Results

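The samples described here are the 6 of 16 in the series that hold endometrium with subclinical endometritis (SE), brushed on day 7 (3 pools) and on day 0 (3 pools) of a superovulated cycle. Subclinical endometritis is an inflammation of the uterine lining that gives no outward signs and is recognised by neutrophils in cells brushed from the uterus. They were chosen by their labels alone, and the probe sets tested were those with a log2 signal above 4 on at least 2 of the 6 arrays, 13070 of 24016. The series drew on 49 cows, all of them superovulated and inseminated. Day 7 samples were taken with a cytobrush just before the uterus was flushed for embryos, and day 0 samples 2 h before insemination. A brush was classed as SE when it held any polymorphonuclear cells and as healthy endometrium (HE) when it held 0, and this was judged at each time. The labels do not state whether a cow in a day 7 SE pool was also in a day 0 SE pool, nor how many cows went into a pool. For comparison there were 2 HE pools on day 7 and 3 HE pools on day 0, brushed at the same times from cows under the same treatment.

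At oestrus the uterus is under oestrogen. After ovulation the corpora lutea secrete progesterone, and the glands and surface epithelium of the endometrium change what they secrete to feed the embryo before it attaches. In cattle this change is known to involve loss of the progesterone receptor from the epithelium, uptake and storage of fatty acids, and altered secretion of amino acids, proteases and their inhibitors. The comparison of day 7 with day 0 asks what this transition looks like in a uterus that holds neutrophils.

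The arrays were alike in brightness, with median log2 signals between 4.18 and 4.30 and 12303 to 12471 probe sets above the filter on each. Replicates were pools of cows, so p-values and standard errors measure the spread between pools. That spread was estimated over all 11 endometrium arrays, HE pools included, and not from the SE pools alone. One library stood apart: SE day 0 replicate 2 correlated at 0.9617 on average with the other pools of its group, against 0.9722 to 0.9802 for the other 5. Its GAPDH 3' probe set exceeded the 5' one by 0.578 on the log2 scale, against 0.0264 and 0.14 in the other day 0 pools and 0.215 to 0.574 on day 7. The poly-A spike-in controls averaged 8.88 to 9.23 on day 7 and 8.10 to 8.77 on day 0, without overlap. Their part in the results was not tested.

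The label of the tissue was checked against markers of its cells. EPCAM and KRT19, surface and cytoskeletal proteins of epithelium, averaged 13.42 and 10.79 on day 7 and 14.33 and 13.44 on day 0, so both were strong in every pool. KRT8 and EHF, also listed as epithelial markers, were on the array but did not pass the filter. PECAM1, VWF and CDH5 of endothelium, HBA and HBB of red cells, DES and MYH11 of smooth muscle, and MPO, ELANE and ITGAM of myeloid cells stayed below a log2 signal of 3 on all 6 arrays. Other markers of these cells were measured. ACTA2, an actin of smooth muscle, had 5.26, 5.03 and 3.44 on day 7, against 7.88, 6.91 and 7.06 on day 0 (change -2.70, limma adjusted p = 0.00143), and the sum over 3 smooth muscle markers was 5.62 to 8.08 on day 7 and 7.14 to 8.84 on day 0. CLDN5, a claudin of endothelium that epithelium can also express, had 4.90 to 6.24 on day 7, against 2.37 to 2.42 on day 0. GYPC, a red cell membrane protein, had 4.94 to 6.09 on day 7 and 4.58 to 4.96 on day 0, a rise of 0.84 (adjusted p = 0.0427) that did not pass without the filter (adjusted p = 0.103). It also did not pass without SE day 7 replicate 1 or 2 (0.78 and 0.59, adjusted p = 0.107 and 0.153) or SE day 0 replicate 1 or 3 (0.77 and 0.81, adjusted p = 0.112 and 0.0982). Their part in the other changes was not tested. EPCAM, KRT19 and a few other genes (FOS, AQP5, PSAT1, ALDH18A1, PEPD, OAT, ODC1 and HSPA5) were named after their values had been seen.

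A large part of what was measured differed between the days. Among 13070 probe sets, 3467 (26.5%) were higher on day 7 and 3213 (24.6%) were lower at an adjusted p below 0.05 (limma with Benjamini-Hochberg adjustment over all probe sets tested), 51.1% in either direction. Counted per gene, by the probe set with the highest mean, 26.8% of 6715 genes rose and 26.6% fell. Counts within the gene lists below are to be read against these shares. The pools of the 2 days did not overlap for 7623 probe sets (58.3%). The changes were large. The median size was 0.599 on the log2 scale, against a median SD between pools of 0.22 on day 7 and 0.25 on day 0. At least 1 log2 unit separated the days for 2065 probe sets that rose and 1887 that fell, and at least 5 units for 82 and 67. The median change was 0.01; since the deposited values were normalized between arrays, this does not measure an overall shift in RNA. Since each sample was a mixture, fewer cells of a type and less RNA per cell cannot be told apart.

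**Figure D1:**
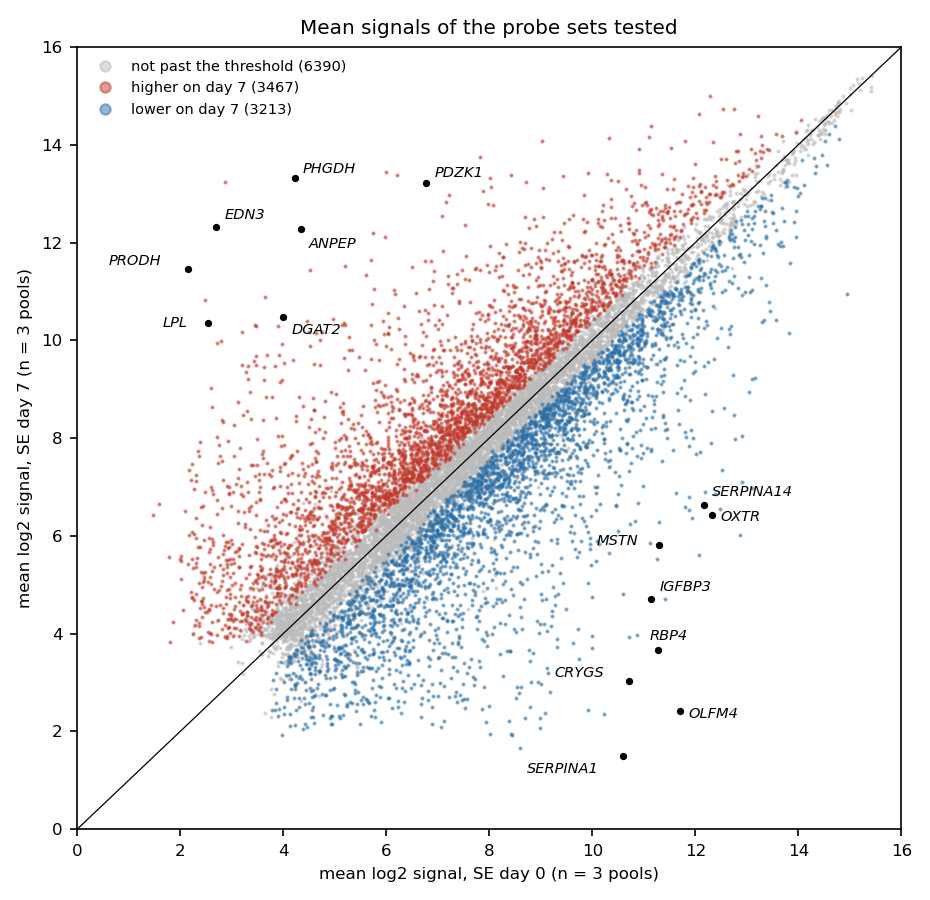
Mean log2 signal of each of the 13070 probe sets on day 7 (vertical axis, 3 pools) against day 0 (horizontal axis, 3 pools) in SE endometrium. The 3467 probe sets that rose lie above the diagonal and the 3213 that fell below it. The genes named in the plot are a selection of those far from it, such as EDN3 at 12.32 against 2.70.

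The plot of mean signals shows that many of the extreme genes had a strong signal on one day and one near the floor of the array on the other. Log2 signals under 4 lie near background, so a fold change against such a group depends on the authors' background correction.

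The 20 genes with the largest rises were led by a secreted peptide and by enzymes of amino acid metabolism. EDN3, an endothelin peptide, had log2 signals of 12.47, 12.27 and 12.22 on day 7, against 2.83, 2.62 and 2.65 on day 0. PRODH, the mitochondrial enzyme that starts proline breakdown, had 11.38, 11.52 and 11.44 on day 7, against 2.11, 2.17 and 2.15 on day 0. PHGDH, which starts serine synthesis, had 13.28, 13.43 and 13.28 on day 7, against 4.35, 2.85 and 5.46 on day 0. All 3 genes were strong in each day 7 pool, and on day 0 only PHGDH was above 4 in any pool. Their log2 changes were 9.62 ± 0.82, 9.31 ± 0.31 and 9.11 ± 0.68 (standard error), with adjusted p of 8.06e-06, 2.71e-08 and 3.1e-06 in limma. The standard error of EDN3 includes the spread of its HE day 0 pools (2.63, 2.59 and 6.46). Between SE pools its SD was 0.14 on day 7 and 0.12 on day 0.

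The other large rises were of varied roles. CYBRD1, a membrane reductase of ferric iron, rose by 8.36 and 7.18 log2 units on its 2 probe sets. SDR16C5, which oxidises retinol, rose by 6.46, and LRAT, which esterifies retinol for storage, rose by 6.17. LRAT differed among pools, with 10.10, 8.68 and 9.67 on day 7 and 2.65, 2.81 and 4.47 on day 0. MCOLN3, a calcium channel of endosomes and lysosomes, rose by 6.92, and KLF15, a transcription factor that controls metabolic genes in other tissues, rose by 6.32. BSP3, named for a family of seminal plasma proteins that bind sperm, had 8.51, 9.89 and 8.68 on day 7, against 2.56, 2.58 and 2.65 on day 0. The others were SPC24, a kinetochore protein (7.46), SEPTIN4 (6.40), EDN1, another endothelin (6.29), the membrane protein PLLP (6.21), COX7A1, a subunit of cytochrome c oxidase (6.15), PFKFB2, a regulator of glycolysis (6.13), and ANPEP, LPL, SLC27A6, DGAT2 and PDZK1, described with their groups.

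**Figure D2:**
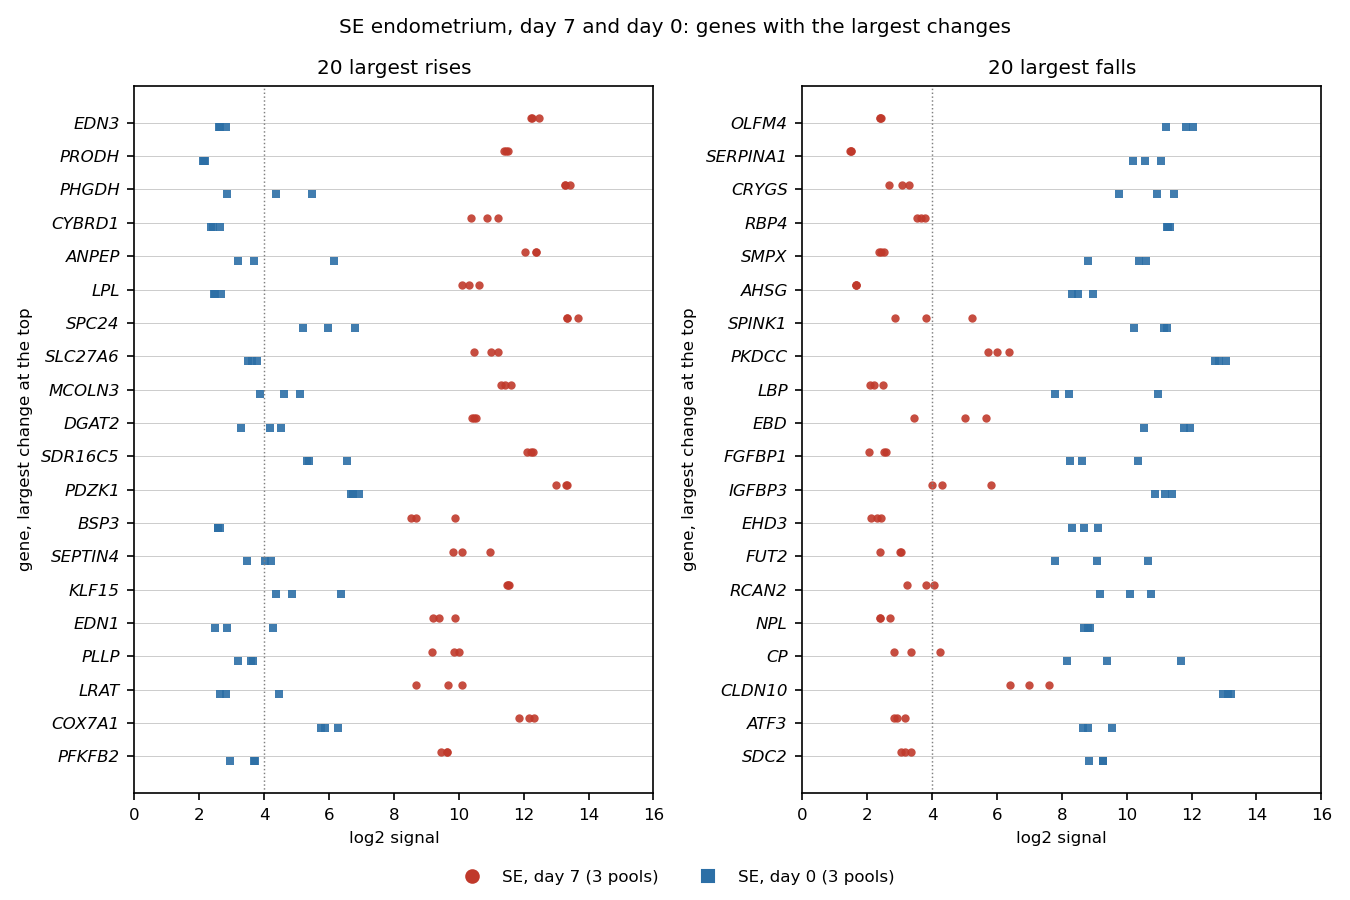
Log2 signal (horizontal axis) of each SE pool for the 20 genes with the largest rise (left) and the 20 with the largest fall (right), day 7 as circles and day 0 as squares. The dotted line marks the filter at 4. The 40 genes were picked for the size of their change on these arrays, so the gap between the days is no separate result. Over all probe sets, 58.3% had no overlap.

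The 20 largest falls included secreted proteins, enzymes and regulators. OLFM4, a glycoprotein of secretory epithelium, had 2.44, 2.39 and 2.40 on day 7, against 12.05, 11.83 and 11.22 on day 0. SERPINA1, the protease inhibitor antitrypsin, had 1.49, 1.48 and 1.49 on day 7, against 11.07, 10.55 and 10.18 on day 0. CRYGS, a crystallin first known from the lens, had 3.07, 2.67 and 3.30 on day 7, against 9.77, 10.94 and 11.46 on day 0. Each of these was near background in every day 7 pool and strong in every day 0 pool. The log2 changes were -9.29 ± 0.29, -9.11 ± 0.27 and -7.71 ± 0.45 (standard error), with adjusted p of 1.85e-08, 1.81e-08 and 6.77e-07 in limma.

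Further down the same ranking stood carriers, kinases and regulators. RBP4, the retinol carrier, had 3.53, 3.66 and 3.78 on day 7, against 11.23, 11.28 and 11.32 on day 0. PKDCC, a secreted kinase, changed by -6.85, and SMPX, a small protein first described in muscle, changed by -7.49. AHSG, the plasma glycoprotein fetuin, changed by -6.94 on the probe set with the largest change, but its 6 probe sets ranged from -6.94 to -0.14, with a mean change of -4.40. ATF3, a stress-induced transcription factor, fell by 6.04 log2 units. The sialic acid lyase NPL (-6.29), the calcineurin regulator RCAN2 (-6.30), the endosomal protein EHD3 (-6.42), the heparan sulphate proteoglycan SDC2 (-5.95) and FGFBP1, which frees growth factor from the matrix (-6.69), completed the group with SPINK1, LBP, EBD, IGFBP3, FUT2, CP and CLDN10.

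The steroid receptors themselves were mostly out of reach. PGR, the progesterone receptor, had signals of 2.16 to 2.27 on day 7 and 2.17 to 2.22 on day 0. ESR1, the main uterine oestrogen receptor, had 1.72 to 1.74 on day 7 and 1.73 to 1.77 on day 0. Both were near background on both days, so these probe sets give no measure of either receptor. ESR2, the other oestrogen receptor, had 7.08, 6.79 and 6.81 on day 7, against 2.45, 2.24 and 2.77 on day 0, a log2 change of 4.41 ± 0.19 (standard error; limma adjusted p = 1.36e-07). Of 10 measured receptors, coregulators and steroid enzymes, 4 rose and 3 fell. FKBP5, a receptor co-chaperone known to be induced by glucocorticoids and progesterone, rose by 3.13. HSD17B4, which inactivates oestradiol, rose by 2.52, and the coactivator NCOA1 by 1.72. HSD11B1, which regenerates active glucocorticoid, had 2.83, 2.47 and 3.1 on day 7, against 6.88, 7.79 and 7.39 on day 0, a fall of 4.55 log2 units. NR3C1, the glucocorticoid receptor, changed by -1.26.

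Genes known to respond to oestrogen mostly fell. Of 14 measured, 9 fell and 3 rose, with a median change of -1.27 against -0.02 over all genes. AGR2, a protein-folding factor of mucus cells, had 11.69, 10.39 and 10.77 on day 7, against 14.87, 15.25 and 14.74 on day 0. EGR1, an early growth response transcription factor, had 5.76, 5.0 and 4.09 on day 7, against 9.55, 9.47 and 8.71 on day 0. KRT18, a keratin of simple epithelium, changed by -2.61. PDZK1, a scaffold of the apical membrane and a known oestrogen target, went the other way, with 13.30, 13.35 and 13.01 on day 7 and 6.75, 6.67 and 6.92 on day 0 (change 6.45 ± 0.19, standard error; limma adjusted p = 1.81e-08). PENK, the precursor of enkephalins, had 9.43, 8.16 and 7.20 on day 7, against 3.07, 2.99 and 3.08 on day 0. TFF3, a mucus-stabilising peptide, and CCN1, a matrix-associated signal, did not pass the test at -1.23 (adjusted p = 0.0591) and 0.54 (0.397).

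Among 22 genes listed under luteal-phase secretion and progesterone response, 11 fell (50.0%) and 3 rose (13.6%), against 26.6% and 26.8% of all genes. The list does not sort its members by direction of response, so these counts do not tell whether luteal secretion rose or fell. SERPINA14, the uterine serpin or uterine milk protein, had 6.32, 7.06 and 6.55 on day 7, against 12.23, 12.30 and 11.96 on day 0, a 45.8-fold difference (limma adjusted p = 7.13e-08). MSTN, the growth inhibitor myostatin, had 5.74, 5.48 and 6.23 on day 7, against 11.38, 11.38 and 11.12 on day 0. CST6, a cystatin that inhibits cysteine proteases, changed by -3.68. The 3 that rose were ANPEP, LPL and DGAT2, and 5 rose when SE day 7 replicate 3 was left out. FABP3, a fatty acid binding protein, averaged 10.61 ± 1.5 on day 7 and 9.24 ± 0.92 on day 0 (SD, n = 3 each), a change of 1.37 that did not pass (adjusted p = 0.115). Its day 7 pools were 8.90, 11.74 and 11.19, and without the lowest of them, SE day 7 replicate 1, the change was 2.23 (limma adjusted p = 0.00461). Across all omissions of a single SE pool, FABP3 ranged from 0.81 to 2.23, with limma adjusted p up to 0.364. HOXA10, a homeobox factor of the uterus, changed by 1.48 (adjusted p = 0.0723). IGFBP1 was not above the filter.

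The receptors and enzymes of prostaglandin and oxytocin signalling moved in both directions, 5 up and 5 down of 11 measured. OXTR, the oxytocin receptor through which the uterus is stimulated to release prostaglandin, had 5.20, 6.83 and 7.25 on day 7, against 12.59, 12.17 and 12.20 on day 0. Its change was -5.89 ± 0.48 (standard error; limma adjusted p = 6.15e-06), a 59.3-fold difference with no overlap. PTGS2, the inducible cyclooxygenase, had 5.57, 6.31 and 6.54 on day 7, against 8.47, 7.20 and 9.0 on day 0, a change of -2.08 (limma adjusted p = 0.00386). PTGES, which makes prostaglandin E, had 3.39, 3.34 and 3.37 on day 7 and 3.76, 5.36 and 5.90 on day 0. The enzyme AKR1C4, of the aldo-keto reductase family, fell by 5.02 (the mean of its 4 probe sets by 2.54), and PTGER2, a prostaglandin E receptor, fell by 3.80. In the other direction, AKR1B1, the prostaglandin F synthase of bovine endometrium, had 14.67, 14.75 and 14.77 on day 7, against 12.97, 12.24 and 13.04 on day 0. PTGIS, which makes prostacyclin, had 9.43, 9.44 and 9.57 on day 7, against 3.80, 3.85 and 3.88 on day 0. PTGER4, another receptor of prostaglandin E, rose by 4.31, and HPGD, which degrades prostaglandins, rose by 5.18. PTGES3, a prostaglandin E synthase that is also a co-chaperone, changed by -0.33 (adjusted p = 0.0521).

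**Figure D3:**
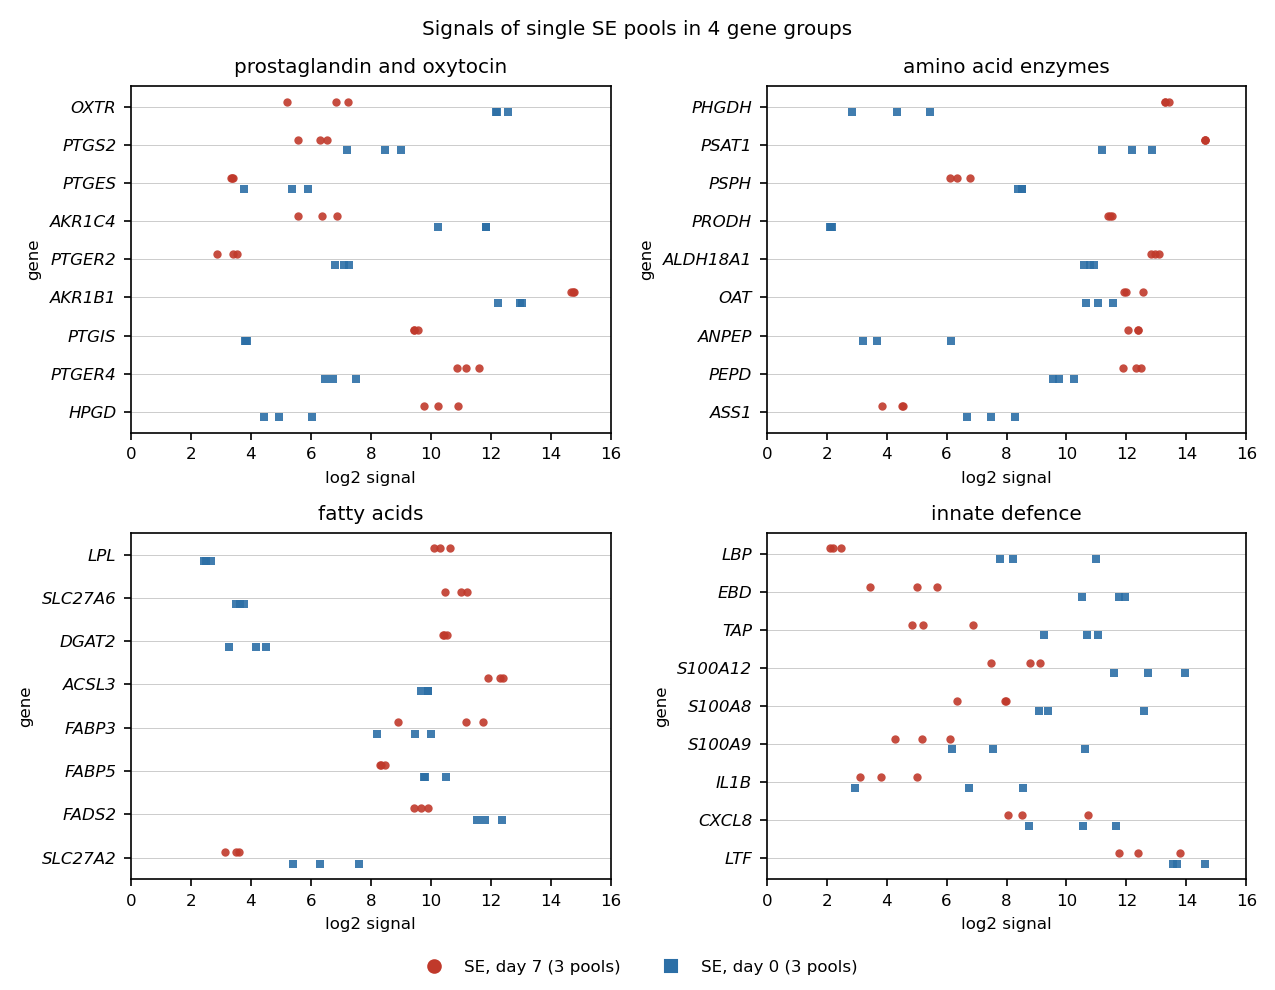
Log2 signal (horizontal axis) of each SE pool, day 7 as circles and day 0 as squares, for genes of 4 groups. In the panel on innate defence the day 0 pools of S100A8, S100A9 and IL1B spread widely, while for most genes of the other panels the pools of a day lie close together.

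The amino acid enzymes moved mainly upward: 18 of 30 rose and 7 fell, with a median change of 1.08. In the serine pathway PHGDH was followed by PSAT1, the next enzyme, with 14.62, 14.62 and 14.63 on day 7 and 12.84, 11.19 and 12.17 on day 0. The mean of the PSAT1 probe sets rose by 4.03. PSPH, which completes serine synthesis, went down, with 6.34, 6.77 and 6.12 on day 7 and 8.38, 8.5 and 8.5 on day 0. So the first steps of the pathway rose by 9.11 and 2.55 and the last changed by -2.05. MTHFD1L, a mitochondrial enzyme of folate metabolism, rose by 3.62, with 11.50, 11.67 and 11.18 on day 7 and 7.82, 7.38 and 8.28 on day 0.

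Enzymes around proline were measured too. Beside PRODH, ALDH18A1, which makes the precursor of proline from glutamate, rose by 2.2, OAT, which links ornithine to it, by 1.08, and PEPD, which frees proline from dipeptides, by 2.38. ANPEP, aminopeptidase N of the apical surface, had 12.37, 12.39 and 12.05 on day 7, against 3.69, 6.14 and 3.2 on day 0 (change 7.93 ± 0.92, standard error; limma adjusted p = 6.31e-05). In polyamine metabolism, ODC1, the first enzyme of synthesis, rose by 2.72 to 15.00 on average, and SAT1, which acetylates polyamines for export, rose by 2.2. SRM, spermidine synthase, changed by -2.34. ASS1, of arginine synthesis, had 3.85, 4.52 and 4.53 on day 7, against 7.48, 6.67 and 8.28 on day 0, and GLUL, glutamine synthetase, changed by -1.77. SHMT2 and PYCR3, of glycine and proline synthesis, did not pass at -0.28 and -0.32 (adjusted p = 0.203 and 0.199).

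Transporters of glucose and amino acids were divided, with 3 of 13 higher and 5 lower. SLC7A7, which exports basic amino acids, had 8.78, 8.34 and 8.84 on day 7, against 6.43, 5.09 and 6.13 on day 0. The peptide transporter SLC15A1 rose by 1.88 and the glutamate transporter SLC1A1 by 1.36. SLC16A1, a carrier of lactate and pyruvate, had 2.59, 2.54 and 2.57 on day 7, against 7.57, 4.95 and 7.50 on day 0. SLC7A1, an importer of basic amino acids, and SLC38A2, an importer of neutral ones, changed by -1.58 and -1.13. SLC5A1, a sodium-coupled glucose transporter, changed by -1.14 (adjusted p = 0.0204), which did not pass without SE day 7 replicate 2 (-0.94, adjusted p = 0.0756) or without SE day 0 replicate 3 (-0.85, adjusted p = 0.0768), nor without the filter (adjusted p = 0.0595).

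Uptake and storage of fatty acids included 3 of the largest rises. LPL, the lipase that frees fatty acids from lipoproteins, had 10.11, 10.31 and 10.63 on day 7, against 2.68, 2.45 and 2.49 on day 0 (change 7.81 ± 0.19, standard error; limma adjusted p = 5.45e-09). SLC27A6, a fatty acid transport protein, had 10.47 to 11.21 on day 7, against 3.50 to 3.77 on day 0. DGAT2, which completes triglyceride synthesis, had 10.41, 10.54 and 10.46 on day 7, against 4.52, 3.28 and 4.18 on day 0. The pools of the 2 days were far apart for each, which their rank among the largest rises already implies. In all, 10 of 26 genes of this group rose and 8 fell, close to the shares over all genes, with a median change of 0.32. ACSL3, which activates fatty acids, rose by 2.38. Members that fell were SLC27A2, a relative of SLC27A6 (-3.02), the desaturase FADS2 (-2.23), PLIN3 of lipid droplets (-1.84) and FABP5, a fatty acid binding protein (-1.65).

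Cholesterol synthesis gave 5 rises (27.8%) and 6 falls (33.3%) among 18 genes, against 26.8% and 26.6% of all genes. The median change was -0.30, and 3 rose without SE day 7 replicate 3 or without SE day 0 replicate 1. SREBF1, the transcription factor that drives lipid synthesis, rose by 2.30, with 11.88, 11.36 and 11.64 on day 7 and 8.93, 9.67 and 9.40 on day 0. Among the enzymes, ACAT2 changed by -2.38, HMGCS1 by -1.65, PMVK by -2.14 and SQLE by -1.80, while TM7SF2 and NSDHL rose by 1.13 and 0.79. MVK and DHCR7 did not pass at -0.64 and -0.40 (adjusted p = 0.115 and 0.135).

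Ion, water and metal transport changed strongly in single genes. Of 20 genes of ion and water transport, 4 rose and 9 fell. AQP4, a water channel, had 10.70, 8.75 and 10.31 on day 7, against 5.10, 6.55 and 5.78 on day 0, while AQP5, another, had 6.44, 5.31 and 5.43 on day 7, against 9.62, 11.29 and 8.94 on day 0. Both were above the filter in every pool, and their changes were 4.11 and -4.22. SLC12A2, the sodium, potassium and chloride cotransporter of secretory epithelium, changed by -3.69, the bicarbonate cotransporter SLC4A4 by -3.70 and the zinc carrier SLC39A2 by -5.49. SLC39A8, another metal carrier, rose by 4.95, and SCNN1A, of the epithelial sodium channel, by 2.46. CLCA1, a secreted regulator of chloride channels and mucus, had 4.28, 4.08 and 6.74 on day 7, against 9.47, 11.69 and 8.58 on day 0. For the chloride channel CFTR the 2 probe sets disagreed, with -5.79 on one and -0.12 on the other, which had the higher mean. Their average changed by -2.96.

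Of 13 genes of iron, zinc and copper handling, 3 rose and 7 fell. CYBRD1 rose together with STEAP2, another metal reductase (3.95), and HMOX1, which breaks down haem (2.70). CP, the copper-carrying ferroxidase ceruloplasmin, had 4.25, 3.34 and 2.84 on day 7, against 9.40, 11.66 and 8.16 on day 0, a fall of 6.26. Its 3 probe sets agreed, from -6.26 to -5.79. The ferritin heavy chain FTH1 changed by -1.02 and the transferrin receptor TFRC by -1.25. FTL, the ferritin light chain, did not pass at 0.29 (adjusted p = 0.101).

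Genes listed as secreted protease inhibitors fell in most cases. Of 21 measured, 13 fell and 2 rose, with a median change of -1.05. SPINK1, a trypsin inhibitor, had 2.87, 3.80 and 5.23 on day 7, against 11.14, 10.23 and 11.24 on day 0. The list is mixed, and its falls include SERPINH1, a collagen chaperone of the serpin family (-2.48). They also include SPINT1, which inhibits membrane serine proteases and is counted among the epithelial markers too (-2.45). The 2 that rose were TIMP3, an inhibitor of metalloproteases, and TFPI, which inhibits tissue factor. TIMP3 had 9.90, 9.19 and 10.30 on day 7, against 6.66, 2.96 and 6.38 on day 0, the low value being that of SE day 0 replicate 2.

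The mucus genes were mostly lower on day 7, 8 of 14, with 2 higher and a median change of -2.10. FUT2, which adds fucose to mucins, had 3.04, 3.01 and 2.38 on day 7, against 9.09, 10.65 and 7.80 on day 0. GALNT1 and C1GALT1, which start and extend the sugar chains of mucins, changed by -2.97 and -2.71. B3GNT3 and FUT8, other sugar transferases, rose by 1.63 and 2.35.

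Folding of proteins in the endoplasmic reticulum went the same way. Of 37 genes, 23 fell and 4 rose, with a median of -0.70. HSP90B1, a chaperone of that compartment, had 11.97, 11.70 and 12.11 on day 7, against 13.52, 14.04 and 13.39 on day 0. MANF, PDIA3 and CALR, all of folding and its stress response, changed by -1.54, -1.31 and -1.38, and PDIA5 by -3.03. HSPA5, the chief chaperone there, changed by -0.70. Among the 4 that rose was DDIT3, a transcription factor of the stress response, at 1.01. That count was 2 without SE day 7 replicate 3, SE day 0 replicate 1 or SE day 0 replicate 3.

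The respiratory chain and the ATP synthase had the highest share of rises among the 34 gene lists. Of 73 subunits of oxidative phosphorylation, 55 (75.3%) rose and 1 fell, against 26.8% and 26.6% of all genes. The changes were small, with a median of 0.58. NDUFB6, of complex I, had 13.02, 13.11 and 13.28 on day 7, against 11.02, 10.92 and 11.11 on day 0. ATP5MC1, of the ATP synthase, had 11.13, 11.13 and 11.11 on day 7, against 9.34, 8.75 and 9.43 on day 0. CYC1 and SDHB, of complexes III and II, rose by 1.42 and 1.24, and the one that fell was NDUFA5 (-0.71). The mean of the 3 NDUFA5 probe sets changed by -0.15 and did not pass (adjusted p = 0.329). When a pool was left out, between 45 and 54 subunits rose and 1 fell.

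Glycolysis did not move as a block. Of 19 genes, 5 rose (26.3%) and 7 fell (36.8%), against 26.8% and 26.6% of all genes. Without SE day 7 replicate 3 or SE day 0 replicate 1, 4 fell. PFKM and PFKL, isoforms of phosphofructokinase, changed by 1.99 and -1.03, and the aldolases ALDOA and ALDOC by 0.92 and -3.63. ALDOC had 3.45, 3.77 and 3.51 on day 7, against 7.54, 7.99 and 6.10 on day 0. The isoforms of both enzymes thus moved apart. GPI, of the upper pathway, rose by 1.58. LDHA, which makes lactate, rose by 0.82 on its probe set of highest mean, but the mean of its 3 probe sets changed by 0.01 (adjusted p = 0.974). HIF1A, the oxygen-sensitive transcription factor, changed by -1.24.

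Of 61 cytosolic ribosomal proteins, 0 rose and 3 fell, with a median of -0.08 and a range of -0.56 to 0.20. These were RPL36A, RPL14 and RPS20, of which RPL14 and RPS20 did not pass in a fit of the 6 SE arrays alone (adjusted p = 0.0742 and 0.055). Their count was 5 without SE day 0 replicate 2 and 1 without SE day 0 replicate 3. Of 32 proteasome genes, 14 fell and 4 rose, led by PSMB7, PSMA1, PSMD11 and PSMD2 (-0.95 to -0.74). The 4 that rose included PSMB9 and PSMB10 of the immunoproteasome (0.78 and 0.60), which did not pass without the filter (adjusted p = 0.0646 and 0.0633). Without SE day 7 replicate 1 the count of rises was 1, and without SE day 7 replicate 3, SE day 0 replicate 1 or SE day 0 replicate 3 it was 2.

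**Figure D4:**
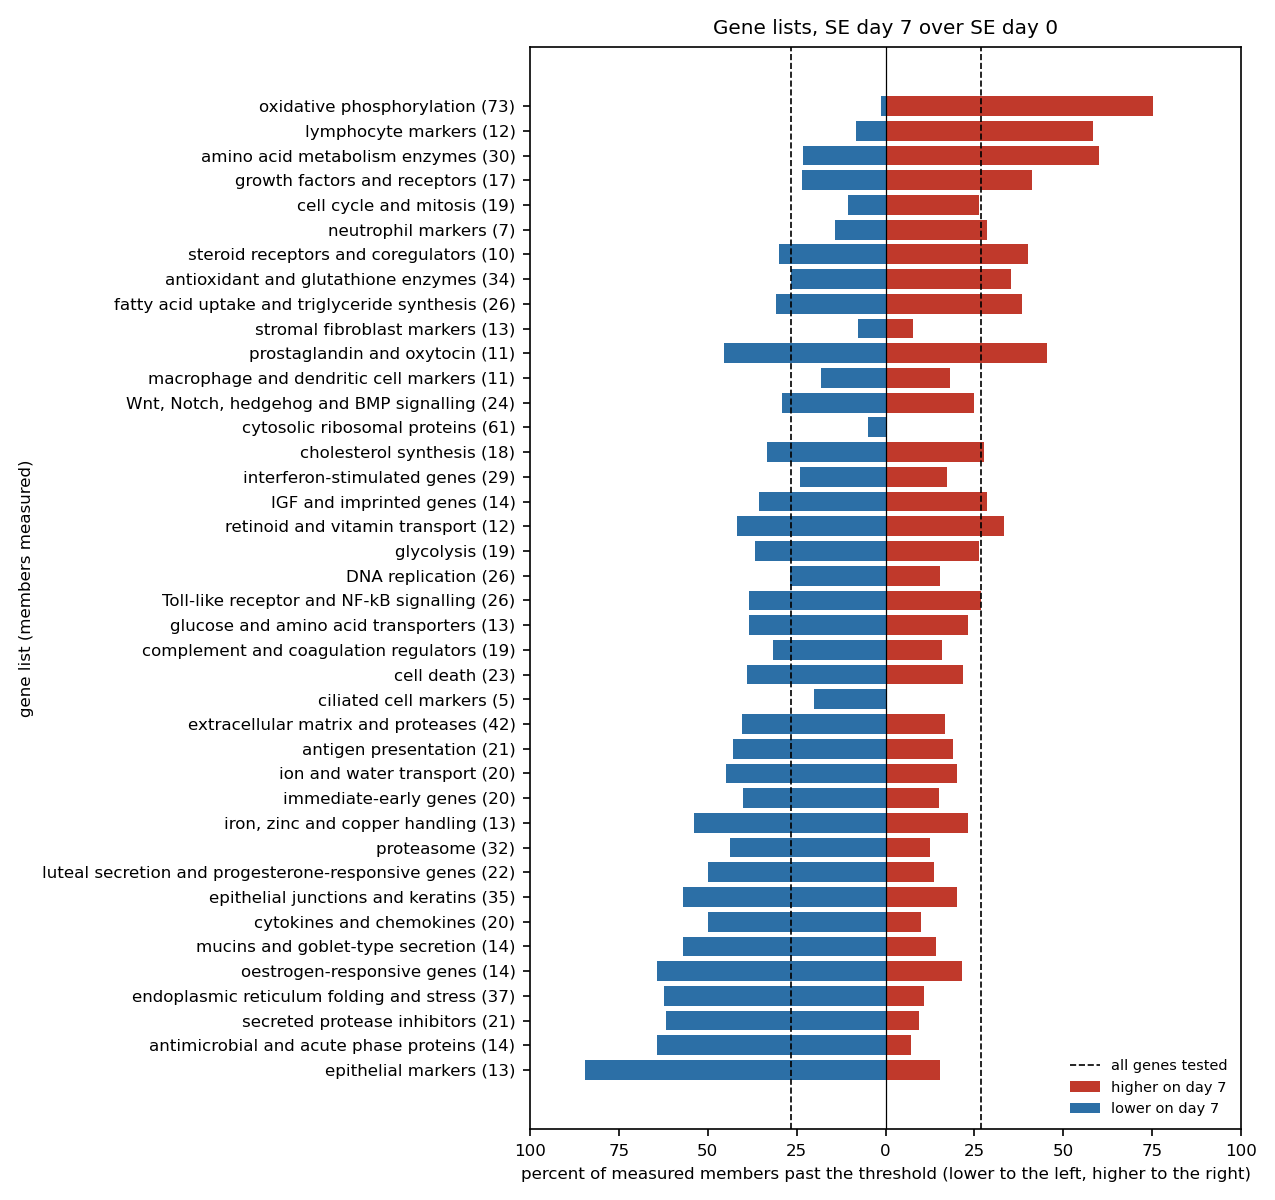
Share of the measured members of each list with at least 5 (number in brackets) that rose on day 7 (bars to the right) or fell (bars to the left), in percent; dashed lines mark the shares over all 6715 genes, 26.8% and 26.6%. Among these lists oxidative phosphorylation has the longest bar to the right (75.3%) and epithelial markers the longest to the left (84.6%).

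Innate defence proteins were among the strongest falls. Of 14 antimicrobial and acute phase genes, 9 fell and 1 rose, with a median of -3.07. LBP, which binds bacterial lipopolysaccharide, had 2.10, 2.48 and 2.21 on day 7, against 8.21, 10.98 and 7.78 on day 0. EBD, the enteric beta-defensin of cattle, had 5.67, 3.44 and 5.01 on day 7, against 10.53, 11.95 and 11.76 on day 0. TAP, the tracheal antimicrobial peptide, had 5.21, 4.85 and 6.89 on day 7, against 9.25, 11.04 and 10.70 on day 0. For all 3 the pools of the 2 days lay apart, as they did for 60.9% of all genes. Their adjusted p were 6.02e-05, 6.05e-05 and 9.53e-05 in limma. RNASE6, an antimicrobial ribonuclease, was the member that rose (1.65). LYZ2, a lysozyme, could not be given a direction: its 4 probe sets changed by 4.54, 5.41, 1.02 and -3.81, and the last of these had the highest mean, so that LYZ2 is counted among the 9 falls.

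The S100 alarmins are proteins that neutrophils carry in quantity. S100A12 had 7.49, 8.77 and 9.13 on day 7, against 11.57, 12.73 and 13.94 on day 0, a change of -4.28 ± 0.74 (standard error; limma adjusted p = 0.000853). S100A8 had 6.35, 7.94 and 7.97 on day 7, against 9.07, 9.39 and 12.59 on day 0, a difference of -2.93 that missed the threshold (adjusted p = 0.0543). S100A9 had 4.29, 6.11 and 5.19 on day 7, against 7.54, 6.19 and 10.61 on day 0 (-2.92, adjusted p = 0.0826). The 3 alarmins did not overlap between days, but neither did 60.9% of all genes, and for S100A9 the nearest pools were 6.11 and 6.19. SE day 0 replicate 3 was the highest pool for each. IL1B, a cytokine of early inflammation, had 3.11, 5.02 and 3.81 on day 7, against 6.75, 2.96 and 8.55 on day 0, and CXCL8, which attracts neutrophils, had 8.52, 10.71 and 8.06 on day 7, against 10.55, 8.74 and 11.64 on day 0. Both overlapped, with adjusted p of 0.185 and 0.396. Without SE day 0 replicate 2, the low IL1B pool, IL1B changed by -3.67 and S100A9 by -3.88 (limma adjusted p = 0.00787 and 0.0367). Across all single omissions IL1B ranged from -3.67 to -0.87 and S100A9 from -3.88 to -1.67, with adjusted p up to 0.567 and 0.282. S100A8 passed in a fit of the 6 SE arrays alone (adjusted p = 0.044), but its adjusted p reached 0.191 when 1 pool was left out. LTF, the iron-binding lactoferrin, changed by -1.30 (adjusted p = 0.0444), and this call was lost without the filter (adjusted p = 0.119) and under 4 of the single omissions. Without SE day 7 replicate 2 or 3 its change was -1.18 or -0.86 (adjusted p = 0.119 and 0.161), and without SE day 0 replicate 1 or 2 it was -1.44 or -0.97 (adjusted p = 0.0624 and 0.142).

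Of 20 cytokines and chemokines, 10 fell and 2 rose, and the number that fell was 6 without SE day 7 replicate 2 or without SE day 7 replicate 3. CCL26, which attracts eosinophils in other species, had 2.65, 2.62 and 2.90 on day 7, against 6.29, 9.38 and 6.36 on day 0. CXCL5, another neutrophil attractant, and CSF1, the macrophage growth factor, changed by -3.14 and -2.41, and CCL2 by -2.25. CXCL16 and CXCL14 rose by 1.79 and 1.83. In Toll-like receptor and NF-kB signalling, 10 of 26 fell (38.5%) and 7 rose (26.9%), against 26.6% and 26.8% of all genes. TLR4 and CD14, which sense lipopolysaccharide together, changed by -3.34 and -3.99, and NFKBIZ, IKBKB and NFKB1 of the pathway by -3.21, -2.44 and -1.93. The inhibitors NFKBIA and TNIP1 rose by 1.40 and 1.94, as did the kinase partner TAB1 (1.91) and the adaptor MYD88 (1.04).

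Interferon-stimulated genes were near the background shares, with 5 of 29 higher and 7 lower. GBP4, a guanylate-binding protein, had 11.40, 11.50 and 11.74 on day 7, against 9.01, 8.40 and 8.65 on day 0, and IFI27 and IRF7 rose by 2.10 and 1.60. MX1, an antiviral protein, changed by -1.23 and IFI30, a lysosomal reductase, by -3.97. In antigen presentation 4 of 21 rose and 9 fell. The peptide transporters TAP1 and TAP2 rose by 1.06 and 0.95, TAPBP, which links them to class I molecules, changed by -1.46, and B2M did not pass at -0.32 (adjusted p = 0.185).

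Of 19 complement and coagulation regulators, 6 fell (31.6%) and 3 rose (15.8%), against 26.6% and 26.8% of all genes. Without SE day 7 replicate 3, 6 rose. F3, tissue factor, had 11.31, 11.55 and 11.79 on day 7, against 9.14, 7.39 and 8.13 on day 0. PLAUR, PLAT and THBD, of fibrinolysis and the control of clotting, changed by -4.70, -3.96 and -3.92. CLU, clusterin, changed by -1.5.

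Marker lists for leukocytes did not move together. For 7 neutrophil markers the summed linear signal, on the log2 scale, was 9.05 to 9.99 on day 7 and 12.02 to 14.53 on day 0. That sum was carried by the S100 genes: S100A12 was the only one of the 7 that fell, while CYBB and ALOX5AP, which other leukocytes also express, rose by 1.48 and 1.87. The count of falls was 2 without SE day 0 replicate 1 and 3 without SE day 0 replicate 2. The sum over 11 macrophage and dendritic cell markers was 9.67 to 11.08 on day 7 and 10.05 to 10.77 on day 0. CD14 and CD83, a marker of activated dendritic cells, fell by 3.99 and 2.87, and 2 rose. The count of rises was 7 without SE day 7 replicate 3 and 1 without any other single pool.

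Lymphocyte markers gave 7 rises and 1 fall of 12. ZAP70, a kinase of T cell signalling, had 6.61, 5.89 and 5.19 on day 7, against 4.35, 4.81 and 3.69 on day 0, and CD2 rose by 1.33. PTPRC, carried by all leukocytes, did not pass at 0.58 (adjusted p = 0.277). The summed signal was 9.94 to 12.67 on day 7 and 11.57 to 12.22 on day 0, overlapping. Only 2 rose without SE day 7 replicate 1 or SE day 0 replicate 3, and 3 without SE day 7 replicate 2. The marker that fell was CD247, a signalling chain of the T cell receptor, at -0.81 (adjusted p = 0.0353). It did not pass without SE day 7 replicate 1 (-0.87, adjusted p = 0.0568) or 3 (-0.50, 0.124), or without SE day 0 replicate 1 (-0.76, 0.0906) or 3 (-0.69, 0.11). VCAM1, a cell-surface molecule to which leukocytes adhere, had 7.70, 6.53 and 7.23 on day 7, against 2.15, 1.99 and 2.46 on day 0 (change 4.95 ± 0.27, standard error; limma adjusted p = 5.18e-07).

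Markers of the epithelium itself were lower on day 7. Of 13 measured, 11 fell and 2 rose, with a median of -1.69, and their summed linear signal was 14.24 to 14.57 on day 7 and 15.58 to 15.88 on day 0 (log2). KRT7 had 9.13, 8.52 and 8.18 on day 7, against 12.40, 12.79 and 12.50 on day 0, and PAX8, a transcription factor of Müllerian epithelium, changed by -2.39. The 2 that rose, CDH1 and CLDN7, did not pass without the filter (adjusted p = 0.0729 and 0.0698) and lost the call under several single omissions: 0 rose without SE day 7 replicate 1, SE day 7 replicate 3, SE day 0 replicate 1 or SE day 0 replicate 3, and 1 without SE day 0 replicate 2. The stromal sum was 12.20 to 13.55 on day 7 and 13.38 to 13.88 on day 0, with 1 of 13 markers higher and 1 lower, and 0 to 1 higher and 0 to 2 lower when a pool was left out. For 5 ciliated cell markers it was 9.54 to 9.79 on day 7 and 10.11 to 11.76 on day 0, with 1 lower, and 2 without SE day 0 replicate 1. The part of these shifts in the other changes was not tested.

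Among 35 junction and keratin genes, 20 fell and 7 rose. CLDN10, a claudin of paracellular ion passage, had 6.98, 6.39 and 7.59 on day 7, against 13.21, 13.12 and 12.96 on day 0. CLDN1, a sealing claudin, had 12.92, 12.73 and 12.56 on day 7, against 10.67, 11.02 and 10.64 on day 0. These claudins were above the filter on both days and changed by -6.11 and 1.96. CLDN5 rose by 3.39. DSC2, of desmosomes, changed by -2.88, and KRT10 rose by 2.32. Extracellular matrix and protease genes gave 17 falls and 7 rises of 42. LAMB3, of epithelial basement membrane, changed by -5.64, the cathepsins CTSH and CTSZ by -4.42 and -2.10, and the metalloprotease MMP19 by -3.91. THBS1, COL4A3, COL4A4 and the sheddase ADAM10 rose by 2.94, 2.52, 3.18 and 1.82. For THBS1 the mean of the probe sets rose by 1.47.

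Growth signals and their binding proteins changed in both directions. Of 17 growth factors and receptors, 7 rose and 4 fell, with a median of 1.13. EDN1 had 9.87, 9.38 and 9.21 on day 7, against 2.84, 2.47 and 4.27 on day 0, whereas ECE1, the protease that activates endothelins, changed by -1.36. VEGFB rose by 3.97 and VEGFA changed by -0.72, so the vascular growth factors moved apart. ADM, adrenomedullin, changed by -3.84. In the group of insulin-like growth factor and imprinted genes, 4 of 14 rose (28.6%) and 5 fell (35.7%). Of all genes, 26.8% rose and 26.6% fell. IGFBP3 had 5.82, 4.01 and 4.30 on day 7, against 11.17, 11.39 and 10.87 on day 0 on the probe set with the larger change, and IGFBP4 and IGFBP6 changed by -3.04 and -3.52. INSR, the insulin receptor, and ASCL2, an imprinted transcription factor, rose by 3.62 and 3.09. PLAGL1 did not pass at -0.15 (adjusted p = 0.721).

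In the Wnt, Notch, hedgehog and BMP group, 6 of 24 rose and 7 fell. TCF7L2 and LEF1, transcription factors through which Wnt signals act, changed by -4.50 and -3.01, their known target AXIN2 by -2.19 and the receptor FZD10 by -3.97. WNT11, a ligand, had 7.45, 7.36 and 7.79 on day 7, against 2.55, 2.57 and 3.34 on day 0. HEY1, a target of Notch, rose by 2.92. In retinoid and vitamin transport, 4 of 12 rose and 5 fell. RBP4, ALDH1A1 and RDH10, which carry retinol and oxidise it toward retinoic acid, changed by -7.62, -3.40 and -2.09, while LRAT rose. SDR16C5, which also oxidises retinol but is not in this list, rose by 6.46. TCN2, a carrier of cobalamin, had no settled direction, since its 5 probe sets changed by -4.39, -4.40, -3.54, 3.08 and 1.82. It is counted among the 4 rises through the probe set of highest mean, at 3.08.

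The immediate-early genes fell in 8 of 20 cases and rose in 3. FOS had 8.57, 4.91 and 5.62 on day 7, against 12.08, 12.47 and 11.24 on day 0, a change of -5.57 ± 1.41 (standard error; limma adjusted p = 0.0079). IER3, which responds to stress, had 7.77, 7.82 and 8.55 on day 7, against 12.85, 12.99 and 12.86 on day 0, and KLF10 and GADD45A changed by -2.78 and -3.24. SGK1, a kinase induced by steroids, rose by 3.66, and CCN2 by 1.54. KLF4 did not pass at -1.05 (adjusted p = 0.0577).

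Cell cycle genes did not show a common direction. CCNB1, the mitotic cyclin, had 13.22, 13.18 and 12.99 on day 7, against 8.20, 8.83 and 7.04 on day 0, and SPC24 had 13.34, 13.67 and 13.35 on day 7, against 6.80, 5.19 and 5.97 on day 0. NUSAP1 and HMMR, proteins of the mitotic spindle, rose by 1.72 and 2.15. CDKN1A, which halts the cycle, had 3.65, 5.13 and 3.66 on day 7, against 9.24, 9.50 and 8.88 on day 0. In all, 5 of 19 rose (26.3%) and 2 fell (10.5%), against 26.8% and 26.6% of all genes, so the share of rises was that of all genes. There were 3 rises without SE day 7 replicate 3, SE day 0 replicate 2 or SE day 0 replicate 3, and 4 falls without SE day 7 replicate 2. Of 26 DNA replication genes 4 rose (15.4%), led by POLE2 (4.07), TK1 (1.81) and POLD2 (1.79). In the same list 7 fell (26.9%, near the share of all genes), among them RRM1 (-2.04), MCM6 (-1.59) and GMNN (-1.54).

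Antioxidant enzymes rose in 12 of 34 cases (35.3%) and fell in 9 (26.5%), against 26.8% and 26.6% of all genes. TXNRD1, thioredoxin reductase, had 12.58, 12.58 and 12.56 on day 7, against 9.59, 9.70 and 9.58 on day 0, and GSTT1, a glutathione transferase, rose by 3.2. TXN, the thioredoxin that TXNRD1 reduces, changed by -0.81, and GPX3, a secreted glutathione peroxidase, by -3.59. Of 23 cell death genes, 9 fell and 5 rose. CASP4, an inflammatory caspase, changed by -2.99 and TNFRSF1A, the receptor of tumour necrosis factor, by -1.29. CASP9 of the mitochondrial pathway rose by 2.02 and its opponent BCL2L1 by 1.37.

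The change over the same days in HE endometrium was then set beside that in SE. In HE, 2880 probe sets rose (22.0%) and 3061 fell (23.4%). Of 6680 SE calls, 6632 had the same sign in HE, and 5143 were called in both in the same direction (77.0% of the SE calls, 86.6% of the HE calls), with 1 called in opposite directions. The 2 sets of pools share no array, but they are not fully independent. Both changes were tested with 1 estimate of the spread per probe set, from all 11 endometrium arrays. The probe sets were those kept by the filter on the 6 SE arrays. Since status was judged at each time, the 2 sets may also share cows. Across the 13070 probe sets, which are not independent replicates, the changes correlated at 0.949, with a slope of 0.929 for HE on SE. The difference of the 2 day changes was tested directly as an interaction. It called 0 probe sets after adjustment in limma, and 513 (3.93%) had an unadjusted p below 0.05. Without SE day 7 replicate 1 it called 1 in each direction, and without SE day 0 replicate 2 or HE day 7 replicate 2 it called 1 that was lower. With 2 HE pools on day 7 this test is less precise than the SE comparison, and it does not show that the responses were equal.

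**Figure D5:**
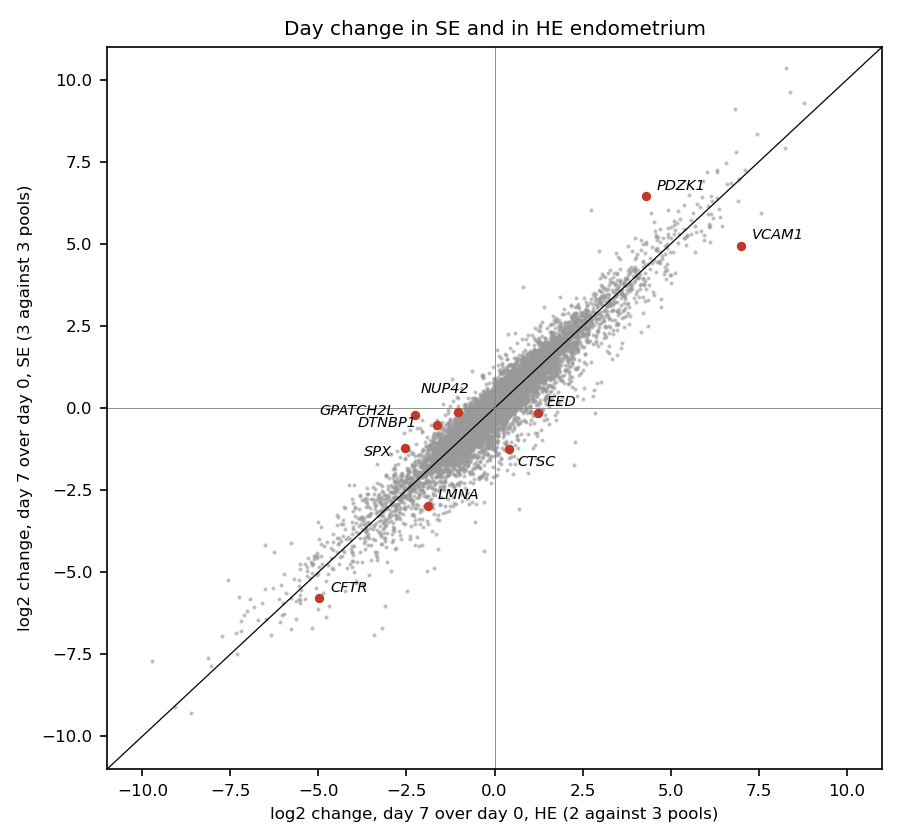
Log2 change of each probe set from day 0 to day 7 in SE (vertical axis) against that in HE (horizontal axis); the line marks equal changes and the red points are the genes with the smallest interaction p. Most points follow the line, PDZK1 lies above it at 6.45 in SE and 4.31 in HE, and VCAM1 below it at 4.95 and 7.01.

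PDZK1 and GPATCH2L had the smallest interaction p. PDZK1 rose by 6.45 in SE and by 4.31 in HE, a difference of 2.14 (limma adjusted p = 0.182). GPATCH2L, whose role is little known, changed by -0.22 in SE and -2.26 in HE, a difference of 2.04 (adjusted p = 0.182). SPX, DTNBP1 and NUP42 also had a more negative value in HE, with differences of 1.32, 1.13 and 0.92. In the other direction, CTSC, a lysosomal protease that activates the serine proteases of neutrophils, had -1.25 in SE and 0.40 in HE (difference -1.65, adjusted p = 0.491). VCAM1 had 4.95 in SE and 7.01 in HE (difference -2.06, adjusted p = 0.538). LMNA, of the nuclear envelope, and CFTR, on its lower probe set, differed by -1.07 and -0.82. EED, a Polycomb protein, differed by -1.37, but its 20 probe sets changed by -3.63 to 5.38 in SE, so the gene as a whole has no clear direction.

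Several of the strongest SE falls were numerically smaller in HE, without a test that separated them. Genes picked for a large change in SE tend to show a smaller one in HE through that choice alone. EBD changed by -6.71 in SE and -3.19 in HE, SPINK1 by -6.91 and -3.42, and ATF3 by -6.04 and -3.1, all with an adjusted interaction p of 1.0. The HE pools of ATF3 disagreed, with 9.39 and 2.54 on day 7, against 8.59, 9.43 and 9.17 on day 0, so its smaller HE value rests on 1 of 2 day 7 pools. S100A12 changed by -4.28 in SE and -2.83 in HE. The opposite order held for CRYGS, at -7.71 in SE and -9.74 in HE, and for GPLD1, a phospholipase that releases anchored surface proteins, at -4.39 and -6.26. GPLD1 had 2.30, 2.27 and 2.29 in SE on day 7, against 7.34, 6.56 and 6.13 on day 0.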

How the data were processed

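RNA from pools of brushed endometrial cells was amplified in 2 rounds from 15 ng and hybridised to a bovine Affymetrix array, per the labels' protocols. The authors deposited log2 signals per probe set, and the submitters' processing notes name GCRMA and limma; versions and a genome build are not given in the sources used here. The deposited table also holds embryo samples, not analysed here. Of 24128 probe sets, 112 were controls. Gene names came from the platform annotation: 13292 probe sets had 1 symbol, 86 several and 10638 none, and 13263 were found in RefSeq.

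Group means were fitted over the 11 endometrium arrays with limma 3.58.1 (R 4.3.3) on the deposited log2 values, with Benjamini-Hochberg adjustment and a threshold of 0.05. The procedure was tested on simulated data. The smallest two-sided p of an exact permutation test of 3 against 3 is 0.1, so single genes were tested by limma only. The number of arrays limits the precision. For a list, each gene was represented by its kept probe set with the highest mean.

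The members and gene lists were chosen with earlier results of these data known. Named genes were the 20 largest rises and falls, up to 4 members past the threshold in each direction and up to 2 others per list, the 5 smallest interaction p in each direction and a set of genes chosen by name. Alternatives were the filter, normalization, prior, array weights, probe set averaging, a replicate block and leaving out each pool. Leaving out pools and further quantile normalization for the gene lists were added after seeing the data. The main fit did not pair pools by replicate number, since the labels do not state a pairing. Tables and figures used Python 3.11.15 with pandas 2.3.3, numpy 2.4.6 and matplotlib 3.10.9.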

Additional observations from a re-analysis of the deposited data

How the results depend on the processing

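The counts of probe sets that rose and fell stayed within 1.5 times of 3467 and 3213 under the other filters, normalization, prior, array weights and the 6 SE arrays alone. With the probe sets of a gene averaged, so that 6715 genes were tested, 1822 rose and 1844 fell. Leaving out 1 pool gave 3032 to 3336 rises and 2762 to 3153 falls, and 0 to 1 interaction calls in each direction. The labels do not state that replicate numbers pair the pools. Deviations of same-numbered pools from their group means correlated at -0.107, -0.229 and 0.13, and those of differently numbered pools at -0.248 to 0.258. With 3 pools a day these values cannot decide whether pools were paired. In a fit with a replicate block, 3279 probe sets rose and 3070 fell, and the interaction called 0.

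Of 373 named probe sets, 296 passed the threshold, and 264 of them did so with the same sign under all alternatives run. Averaging probe sets turned the sign of EED (0.11), LYZ2 (1.79) and TCN2 (-1.49). MYLK turned to -0.40 with array weights. When 1 pool was left out MYLK ranged from -0.29 (without SE day 0 replicate 2) to 1.76, PLAGL1 from -0.54 to 0.23 (without SE day 7 replicate 3), and TAGLN from -0.87 to 0.57 (without SE day 0 replicate 1), with 0.24 without SE day 7 replicate 3. Of these genes, MYLK, PLAGL1, TAGLN and EED were not past the threshold in the first place. Beyond the averaging of probe sets and the omission of pools, the cause was not tested. Signals near background give no measure of a change, and this limits PGR and ESR1.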
